A study of Homo sapiens with 16 samples.

Results

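The quantity described here is the difference between 2 responses to erastin in HT-1080, a human fibrosarcoma cell line. The response is the change in a gene's log2(FPKM + 1) from untreated to erastin-treated libraries. The response in siNS, the control group of the series, was subtracted from the response in siDCAF8+siLSH, the group labelled as depleted of DCAF8 and LSH together. The comparison uses 8 of the 16 libraries of the series, in 4 groups of 2: siNS, siNS/Erastin, siDCAF8+siLSH and siDCAF8+siLSH/Erastin. All 4 groups are HT-1080 cells, and by the labels the treated groups received erastin at 10 µM for 24 h. That treatment text stands with every sample, untreated ones included, so the group names alone say which libraries were treated. The other 8 libraries are siDCAF8, with DCAF8 alone depleted, and oeWDR76, each without and with erastin, and they enter the fit only through the shared estimate of the spread. The labels name no vehicle for untreated cells, and no group of the series is labelled as depleted of LSH alone. Nothing says that replicate libraries are separate cultures, so the p-values measure only the spread between these libraries, which may be technical. All genes with values were taken, 17552 in number, and 11260 of them had a mean of at least 1 FPKM and were tested. A positive difference means that erastin moved the gene upward in siDCAF8+siLSH relative to siNS, and a gene is called where limma's p, adjusted by Benjamini-Hochberg over all genes tested, is under 0.05.

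Erastin blocks system xc-, the cystine importer made of SLC7A11 and SLC3A2. Cells that lack cystine run short of cysteine and glutathione, the peroxidase GPX4 loses its cosubstrate, and lipid peroxides build up in an iron-dependent death called ferroptosis. Amino acid shortage is also sensed by the kinase GCN2, which raises translation of the transcription factor ATF4, and electrophiles and oxidants stabilize NRF2, which drives glutathione and iron-storage genes. DCAF8 is a substrate receptor of the CRL4 ubiquitin ligases, and LSH, encoded by HELLS, is a chromatin remodeler needed for normal DNA methylation.

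The targeted genes were read first. DCAF8 stood at 38.9 and 40.4 FPKM in siNS, 36.7 and 36.7 in siNS/Erastin, 17.4 and 14.3 in siDCAF8+siLSH, and 14.6 and 17.1 in siDCAF8+siLSH/Erastin. Every library labelled siDCAF8+siLSH was thus below every siNS library, and the erastin response of DCAF8 differed by 0.11 (SE 0.11, adjusted p = 0.502). HELLS stood at 4.05 and 3.98 FPKM in siNS and at 4.05 and 4.07 in siDCAF8+siLSH, so the untreated libraries labelled as depleted of LSH were not below the control. In the 2 untreated libraries with siDCAF8 alone it was 6.83 and 7.45, above both. With erastin HELLS was 3.60 and 3.37 in siNS and 2.12 and 2.36 in siDCAF8+siLSH, a response difference of -0.48 (SE 0.10, adjusted p = 0.00286). Protein was not measured, and siDCAF8+siLSH below names libraries by their label.

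Of the mesenchymal markers VIM had a mean of 2040.0 FPKM in siNS and FN1 684.0, while COL1A1 was near 1 in every group. No epithelial, blood or endothelial marker exceeded 3.57 FPKM in any of the 8 libraries, and KRT5 was listed at 0. The summed mesenchymal markers ran from 4330.0 to 4380.0 FPKM in siNS, from 3160.0 to 3270.0 in siNS/Erastin, from 4090.0 to 4490.0 in siDCAF8+siLSH and from 3680.0 to 3780.0 in siDCAF8+siLSH/Erastin. Replicates correlated at 0.996 to 0.997 over genes. In a principal component analysis of the 8 libraries the first component held 73% of the variance and separated siNS from siDCAF8+siLSH, and the second held 13.5% and separated treated from untreated libraries. In bulk RNA, fewer cells in a state and less RNA per cell cannot be told apart.

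With erastin, 30 of 41 ATF4 and amino acid genes fell in siNS (against 22.4% of all genes). In the libraries labelled siDCAF8+siLSH 27 rose (against 10.6%). Of 21 heat shock genes 19 rose in siNS (against 15.1% of all genes) and 5 in siDCAF8+siLSH (against 10.6%). Over all genes the responses differed for 2790 genes, 24.8% of those tested, of which 1762 were higher in siDCAF8+siLSH (15.6%) and 1028 lower (9.13%). Scaling changed that split: 63.2% of calls were higher as deposited, 51.3% after median-ratio scaling and 49.2% after quantile normalization. Most differences were small, with a median size of 0.43 log2 among called genes, and 70 passed 2-fold, 58 of them higher. Leaving out siNS replicate 2 left 1761 calls.

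Called genes more often had a called response in siNS alone than in siDCAF8+siLSH alone. In siNS erastin raised 1704 genes (15.1%) and lowered 2519 (22.4%), and in siDCAF8+siLSH it raised 1196 (10.6%) and lowered 1074 (9.54%). These splits moved with scaling: in siNS they were 2093 and 2137 after median-ratio scaling and 2234 and 2058 after quantile normalization, and in siDCAF8+siLSH 1094 and 1139, and 1141 and 1157. Among the 1762 genes with a higher response, 946 fell in siNS and were not called in siDCAF8+siLSH, 363 rose in siDCAF8+siLSH and were not called in siNS, and 251 fell in the one and rose in the other. Among the 1028 with a lower response, 635 rose in siNS alone by these calls, 195 fell in siDCAF8+siLSH alone, and 80 rose in siNS and fell in siDCAF8+siLSH. The 531 genes that fell in both were 21.1% of the falls in siNS and 49.4% of those in siDCAF8+siLSH. The 293 that rose in both were 17.2% and 24.5% of the rises. Across genes the 2 responses, which share no library, correlated at 0.23, with SDs of 0.28 in siNS and 0.22 in siDCAF8+siLSH, and genes are not independent replicates.

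**Figure D1:**
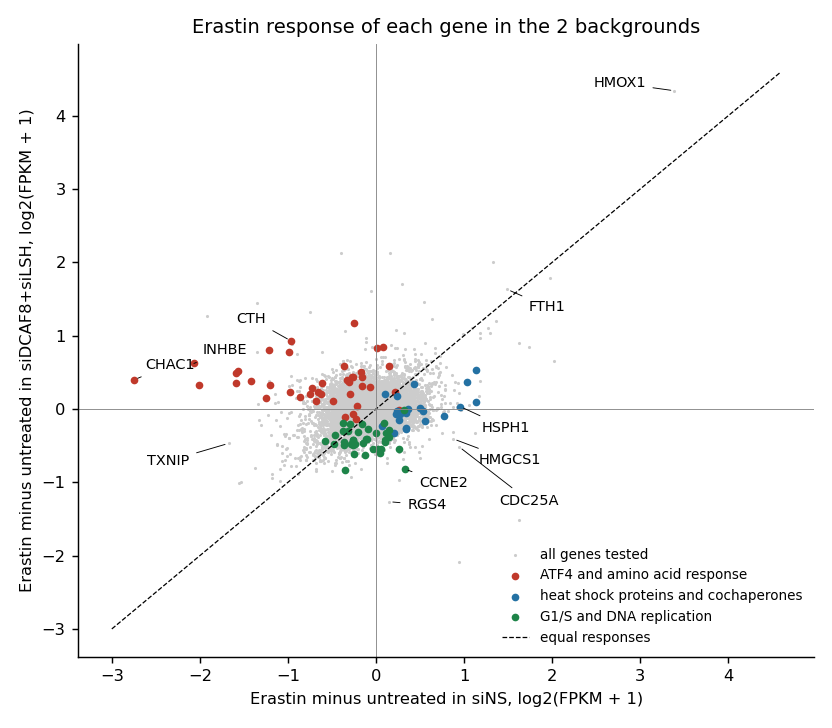
Erastin response of each of the 11260 genes tested, as the difference in mean log2(FPKM + 1), in siNS (horizontal) and siDCAF8+siLSH (vertical); grey points are all genes, colours mark 3 gene lists and the dashed line marks equal responses. Most of the ATF4 list lies above the line (36 of 41 called higher), most of the heat shock list lies below it (18 of 21 called lower), and HMOX1 and FTH1 rose in both.

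Because each response is measured from its own untreated level, those levels belong beside it. Without erastin 4041 genes were higher in siDCAF8+siLSH than in siNS (35.9%) and 3478 were lower (30.9%). After median-ratio scaling these were 3638 and 3872. Of the 2790 genes whose responses differed 2061, or 73.9%, were among these. Genes with a higher response had a median untreated gap of -0.24 log2 between siDCAF8+siLSH and siNS and a median gap of 0.24 with erastin. Genes with a lower response went from 0.31 to -0.08. The difference of responses is the gap with erastin minus the untreated gap, so the direction of both shifts follows from how the genes were picked. The gap became smaller in size for 49.4% of the former, 61.8% of the latter and 52.0% of all genes tested. GC content and transcript length together accounted for 13.1% of the variance of the difference over genes, with GC-rich genes higher, and after a correction for both 2721 genes were called, 1692 of them higher.

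Of the 26 gene lists examined, the one with the highest share of higher responses was that of ATF4, the transcription factor of the integrated stress response, and its amino acid genes. Of 44 such genes 41 were tested, and 36 were higher in siDCAF8+siLSH (against 15.6% of all genes), with 1 lower and 4 not called. The median difference was 0.83 log2, against 0.04 for all genes. In siNS 30 of the 41 fell with erastin and 2 rose (against 22.4% and 15.1% of all genes), with a median of -0.49. In siDCAF8+siLSH 27 rose and 0 fell (against 10.6% and 9.54%), with a median of 0.35. The list began lower there: 29 of 41 were lower in untreated siDCAF8+siLSH than in untreated siNS (against 30.9%), with a median of -0.52. With erastin the median gap was 0.32. Over the 17 alternatives in normalization, filter, model and libraries the number higher ran from 33 to 37.

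CHAC1, which breaks glutathione down and is a marker of this pathway, had the largest difference of the list. It stood at 33.8 and 37.9 FPKM in siNS and at 3.71 and 5.41 in siNS/Erastin. In siDCAF8+siLSH it stood at 3.34 and 3.37, and with erastin at 3.79 and 5.90. The untreated siNS libraries were thus far above the other 6, which lay close together. The response was -2.74 in siNS and 0.40 in siDCAF8+siLSH (adjusted p = 0.056 for the latter), a difference of 3.14 (SE 0.20, adjusted p = 2.52e-07). DDIT4, an inhibitor of mTORC1, had the same shape, with 207 and 207 FPKM in siNS and 40.6 to 66.9 in the 6 other libraries, and a difference of 2.33 (SE 0.18, adjusted p = 5.74e-07). INHBE, which encodes an activin subunit, differed by 2.69 (SE 0.19), falling in siNS from 41.5 and 47.4 to 9.48 and 10.2 FPKM and rising in siDCAF8+siLSH from 11.9 and 10.7 to 15.7 and 20.4.

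Other members crossed over, being lower than the control before erastin or level with it and higher after. TRIB3, a pseudokinase that dampens ATF4 signaling, fell in siNS from 37.8 and 38.8 to 13.5 and 13.8 FPKM. In siDCAF8+siLSH it rose from 27.6 and 27.6 to 35.7 and 36.9, a difference of 1.81 (SE 0.13, adjusted p = 3.77e-07). PCK2, the mitochondrial phosphoenolpyruvate carboxykinase, fell in siNS from 67.4 and 75.2 to 29.5 and 30.6 FPKM and rose in siDCAF8+siLSH from 42.0 and 38.9 to 64.5 and 78.5. The groups within each background did not overlap for either gene. GPT2 (2.08), an alanine transaminase, JDP2 (1.94), a bZIP factor, and SESN2 (1.54), a leucine sensor upstream of mTORC1, moved alike. ATF4 itself stood at 398 and 418 FPKM in siNS, 367 and 364 in siNS/Erastin, 281 and 288 in siDCAF8+siLSH, and 358 and 417 in siDCAF8+siLSH/Erastin. Its fall in siNS was not called (-0.16, adjusted p = 0.0588), its rise in siDCAF8+siLSH was (0.44, adjusted p = 1.45e-04), and the responses differed by 0.60 (SE 0.09, adjusted p = 2.72e-04). The 1 member with a lower response was ALDH18A1 (-0.27), which makes the proline precursor.

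**Figure D2:**
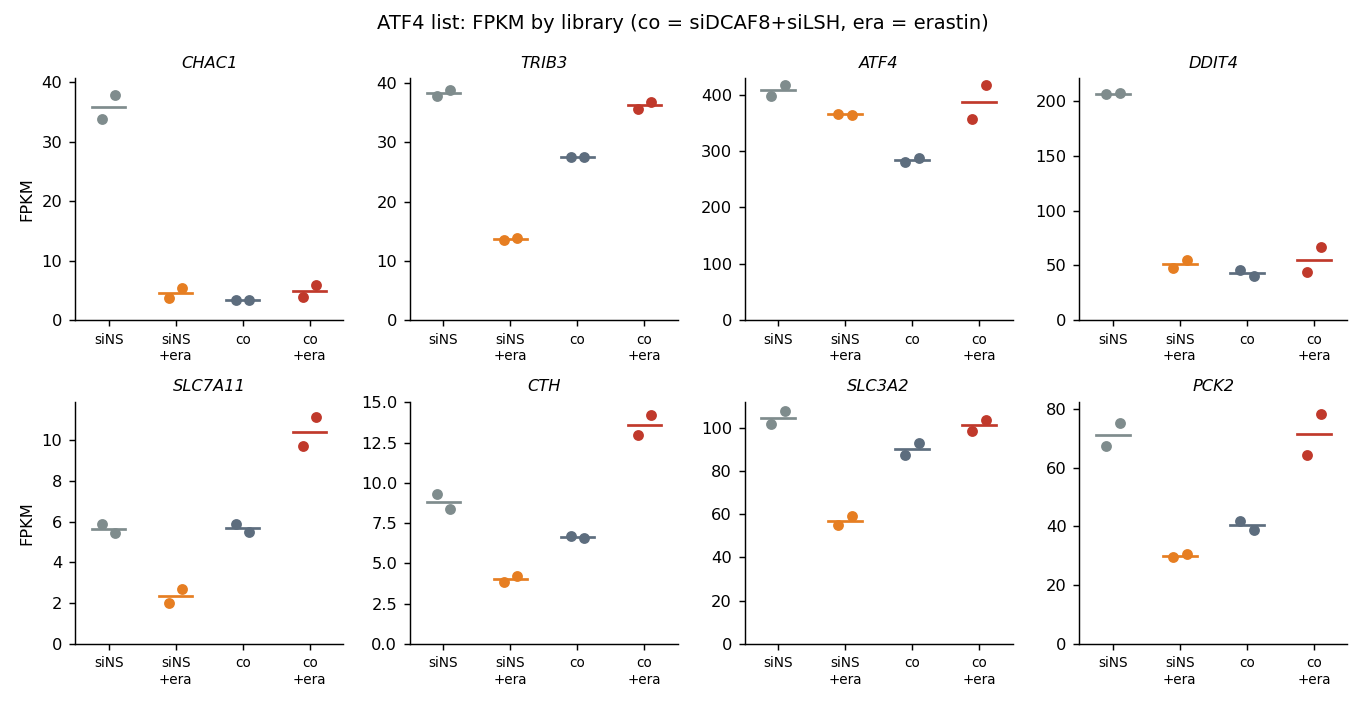
FPKM of 8 genes of the ATF4 list in each of the 8 libraries (points) with the mean of each group of 2 (line), for siNS and siDCAF8+siLSH (co) without and with erastin (era); each axis starts at 0. CHAC1 and DDIT4 are high in untreated siNS only, while SLC7A11 and CTH are highest in siDCAF8+siLSH with erastin.

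The amino acid transporters and the route from methionine to cysteine were part of this list. SLC7A11, the cystine-carrying subunit of system xc- and so the target of erastin, stood at 5.86 and 5.43 FPKM in siNS and at 5.89 and 5.47 in siDCAF8+siLSH. With erastin it fell to 2.02 and 2.69 in siNS and rose to 9.71 and 11.1 in siDCAF8+siLSH. From similar starting levels the 2 backgrounds moved apart, by 1.76 (SE 0.23, adjusted p = 8.25e-05). SLC3A2, its partner subunit, stood at 102 and 108 FPKM in siNS and fell to 54.9 and 59.4, while in siDCAF8+siLSH it was 87.3 and 93.0 before and 98.7 and 104 after erastin, a difference of 1.03 (SE 0.08, adjusted p = 6.92e-07). The large neutral amino acid transporter SLC7A5 (1.40), the serine and alanine transporter SLC1A4 (2.09), the glutamine transporter SLC1A5 (1.01) and the arginine transporter SLC7A1 (0.83) were also higher. SLC38A2, another neutral amino acid transporter, differed by 0.09 and was not called. CTH, the enzyme that releases cysteine from cystathionine, fell in siNS from 9.30 and 8.36 to 3.84 and 4.19 FPKM. In siDCAF8+siLSH it rose from 6.71 and 6.57 to 13.0 and 14.2, above the other libraries of the 8 compared. The difference was 1.90 (SE 0.15, adjusted p = 5.74e-07). In siDCAF8/Erastin, outside the 8, CTH was higher still, at 21.4 and 16.6 FPKM. CBS, the enzyme before it, differed by 0.82, but its reads may be split with the near-identical LOC102724560 (2.07), so both values are uncertain.

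Synthesis of serine, asparagine and charged tRNAs followed with smaller differences. PHGDH and PSAT1, the opening enzymes of serine synthesis, differed by 0.71 and 0.72, and asparagine synthetase ASNS by 0.71. Of the 20 cytosolic aminoacyl-tRNA synthetases 8 were higher and 0 lower (against 15.6% and 9.13% of all genes), with a median of 0.21. AARS1, which charges alanine, fell in siNS from 154 and 160 to 81.6 and 85.7 FPKM and rose in siDCAF8+siLSH from 98.7 and 90.5 to 124 and 127, a difference of 1.30 (SE 0.09, adjusted p = 3.77e-07). CARS1, which charges cysteine, differed by 1.12, SARS1 by 0.84 and MARS1 by 0.49. The other 12 were not called and ran from -0.17 (FARSB) to 0.27 (TARS1). With the correction for GC content and length 12 synthetases were higher, 1 was lower and the median was 0.31.

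Sites for ATF4 with its C/EBP partners were sought as TGATGNAA on either strand in the 250 bases before the RefSeq start of each gene (GRCh38.p14). The match was found in 3 of 31 promoters of the list (9.68%) and in 1.29% of the 9101 promoters of tested genes. The 30 bases around it are shown for the 2 matching genes with the largest differences, CHAC1 and ASNS, with the match in capitals. The CHAC1 site lies 209 bases before the start, on the plus strand within chr15:40953221-40953470, and reads as the reverse complement of the motif. The ASNS site lies 68 bases before the start, on the minus strand within chr7:97872409-97872658. In the deposited table both genes begin upstream of the site, so its place relative to the start depends on the annotation. A match is a description of the letters and not a measured binding site.
CHAC1: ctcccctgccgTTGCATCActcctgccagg
ASNS: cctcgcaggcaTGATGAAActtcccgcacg

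Of the ferroptosis genes outside this list, HMOX1 and FTH1 rose in both backgrounds. Among the 22 tested iron genes 6 rose in siNS and 4 in siDCAF8+siLSH, against 15.1% and 10.6% of all genes. HMOX1, which degrades heme and so frees its iron, stood at 14.4 and 15.1 FPKM in siNS and at 7.82 and 11.7 in siDCAF8+siLSH. With erastin it reached 111 and 241 in siNS and 191 and 239 in siDCAF8+siLSH, so the treated groups overlapped. It rose by 3.39 in siNS and by 4.34 in siDCAF8+siLSH, and the difference of 0.95 (SE 0.42) was not called (adjusted p = 0.108). This rested on 1 library: without siNS/Erastin replicate 2 the difference was 1.51 with an adjusted p of 0.0111, within a range over the alternatives of 0.0111 to 0.47. FTH1, the ferritin heavy chain, rose in siNS from 987 and 989 to 2618 and 2951 FPKM and in siDCAF8+siLSH from 506 and 516 to 1506 and 1670. It kept its lower level in siDCAF8+siLSH, with responses of 1.49 and 1.63 and a difference of 0.14 (SE 0.13, adjusted p = 0.472). The light chain FTL differed by -0.11 (SE 0.09, adjusted p = 0.383), and TFRC, the transferrin receptor, by -0.23 (SE 0.16, adjusted p = 0.302).

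Of 29 tested genes of NRF2 and its targets, 19 rose in siNS and 16 in siDCAF8+siLSH, against 15.1% and 10.6% of all genes. The median responses were 0.35 and 0.29. The responses differed for 6, of which 2 were higher and 4 lower, against 24.8% of all genes in either direction, and the median difference was 0.01. Without siNS replicate 2, siNS/Erastin replicate 2 or siDCAF8+siLSH/Erastin replicate 2, or with no filter on low values, the 4 became 2. TXNRD1, thioredoxin reductase, rose by 0.99 in siNS and 1.02 in siDCAF8+siLSH, and GCLM, the modifier subunit of glutamate-cysteine ligase, by 1.27 and 1.11. GSR, which regenerates reduced glutathione, rose in siNS from 26.4 and 24.8 to 38.2 and 38.9 FPKM and was 20.27 and 18.01 before and 22.23 and 20.15 after erastin in siDCAF8+siLSH, a difference of -0.43 (SE 0.09, adjusted p = 0.00372). The other lower members were UGDH (-0.47), TXN (-0.31) and ABCC1 (-0.29), and OSGIN1 (0.59) was higher beside SLC7A11. The call for OSGIN1 was lost under 8 of its 16 alternatives. It was lost with no filter on low values, after quantile normalization and with the correction for GC content and length. It was also lost when siNS replicate 1, siNS/Erastin replicate 2, siDCAF8+siLSH replicate 2 or either siDCAF8+siLSH/Erastin library was left out.

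The remaining ferroptosis lists had calls in both directions, to be read against the 24.8% of all genes. GPX4, which reduces lipid peroxides, stood at 118 and 126 FPKM in siNS, 144 and 135 in siNS/Erastin, 108 and 104 in siDCAF8+siLSH, and 140.4 and 139 in siDCAF8+siLSH/Erastin. Its difference of 0.20 (SE 0.07, adjusted p = 0.0482) was near the threshold and was lost under 10 of 17 alternatives, and with the correction for GC content and length it was -0.00015. Of 22 suppressors of ferroptosis beside glutathione synthesis 6 were higher and 1 lower, the largest being SLC7A11 and SLC3A2 again, and without siNS replicate 2 the 6 became 2. Without siDCAF8+siLSH replicate 2 or siDCAF8+siLSH/Erastin replicate 1 they became 3. AIFM2, a coenzyme Q reductase, differed by 0.20 (adjusted p = 0.142). Among 16 tested drivers 3 were higher (1 to 3 over the alternatives) and 2 lower (1 to 4). SAT1, a polyamine acetyltransferase, rose in siNS from 113 and 115 to 245 and 232 FPKM but in siDCAF8+siLSH only from 81.5 and 88.1 to 107 and 110.2, a difference of -0.71 (SE 0.14, adjusted p = 0.00204). ACSL4, which feeds polyunsaturated fatty acids into membranes, differed by -0.20 and was not called. Of 22 iron genes 3 were higher, led by BLVRB (0.50) and STEAP3 (0.44), and 3 lower, led by the importer SLC39A8 (-0.53).

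The heat shock proteins rose with erastin in siNS and for the most part were not called as rising in siDCAF8+siLSH. These chaperones are induced by HSF1 when proteins misfold. Of 21 tested members 18 had a lower response (against 9.13% of all genes) and 0 had a higher one, with a median of -0.49. In siNS 19 rose with erastin (against 15.1% of all genes), with a median of 0.34. In siDCAF8+siLSH 5 rose and 4 fell (against 10.6% and 9.54% of all genes), with a median of -0.03. In siDCAF8 alone 4 rose and 4 fell (against 18.3% and 22.5%). Before erastin 17 were already higher in siDCAF8+siLSH than in siNS (against 35.9% of all genes), with a median gap of 0.55. With erastin the median gap was 0.15. The number lower ran from 16 to 18 over the alternatives.

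HSPH1, a nucleotide exchange factor for HSP70, stood at 17.5 and 15.9 FPKM in siNS and 32.5 and 34.2 in siNS/Erastin. In siDCAF8+siLSH it stood at 37.1 and 36.5, and with erastin at 38.4 and 37.0. Only the untreated siNS libraries were low, and the difference was -0.92 (SE 0.09, adjusted p = 7.50e-06). HSPA8, the constitutive HSP70, rose in siNS from 597 and 582 to 827 and 882 FPKM and was 1099 and 1263 before and 1101 and 1205 after erastin in siDCAF8+siLSH (difference -0.57). HSP90AA1, the inducible HSP90, rose in siNS and fell in siDCAF8+siLSH from 444 and 499 to 403 and 378 FPKM (difference -0.61). HSPA1A (-0.67) and HSPA1B (-1.04), the inducible HSP70 genes, are near-identical, so their split of reads is uncertain. JMJD6, a hydroxylase outside the list, rose in siNS from 15.95 and 16.57 to 34.8 and 35.0 FPKM and was between 14.08 and 15.04 in all 4 libraries of siDCAF8+siLSH. Its responses were 1.06 and 0.06 (adjusted p of the difference 7.02e-07). BAG3 (-0.09), DNAJB6 (-0.06) and HSF1 (0.11) were not called.

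The heat shock element was sought as GAA, 2 bases, TTC, 2 bases and GAA on either strand. It was found in 3 of 18 promoters of the list (16.7%) and in 0.286% of all 9101. The 2 matching genes with the lowest differences were CHORDC1 (-0.72), an HSP90 cochaperone, and HSPA8, and the 30 bases around the match nearest the start are shown with matches in capitals. In CHORDC1 3 matches overlap, the first 60 bases before the start, on the minus strand within chr11:90223050-90223299. In HSPA8 the match shown lies 55 bases before the start, on the minus strand within chr11:123062137-123062386. Both lie after the deposited table's first base of the gene.
CHORDC1: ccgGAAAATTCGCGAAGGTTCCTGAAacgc
HSPA8: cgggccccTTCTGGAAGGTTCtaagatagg

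Chaperones of the endoplasmic reticulum went the same way in part. Of 24 tested genes of its unfolded protein response 8 had a lower and 3 a higher response (against 9.13% and 15.6% of all genes). The median was -0.16. HSPA5, the main chaperone there, rose in siNS from 261 and 254 to 520 and 396 FPKM and was 180.1 and 168 before and 173 and 168 after erastin in siDCAF8+siLSH, a difference of -0.84 (SE 0.13, adjusted p = 3.63e-04). MANF, a secreted stress protein, rose in siNS and fell in siDCAF8+siLSH (-0.82), and SDF2L1 differed by -0.91. The transcription factor XBP1 (0.55) and its activating kinase ERN1 (0.57) were higher instead. XBP1 fell in siNS from 76.2 and 76.8 to 69.8 and 62.5 FPKM and rose in siDCAF8+siLSH from 57.7 and 56.9 to 70.3 and 75.1.

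**Figure D3:**
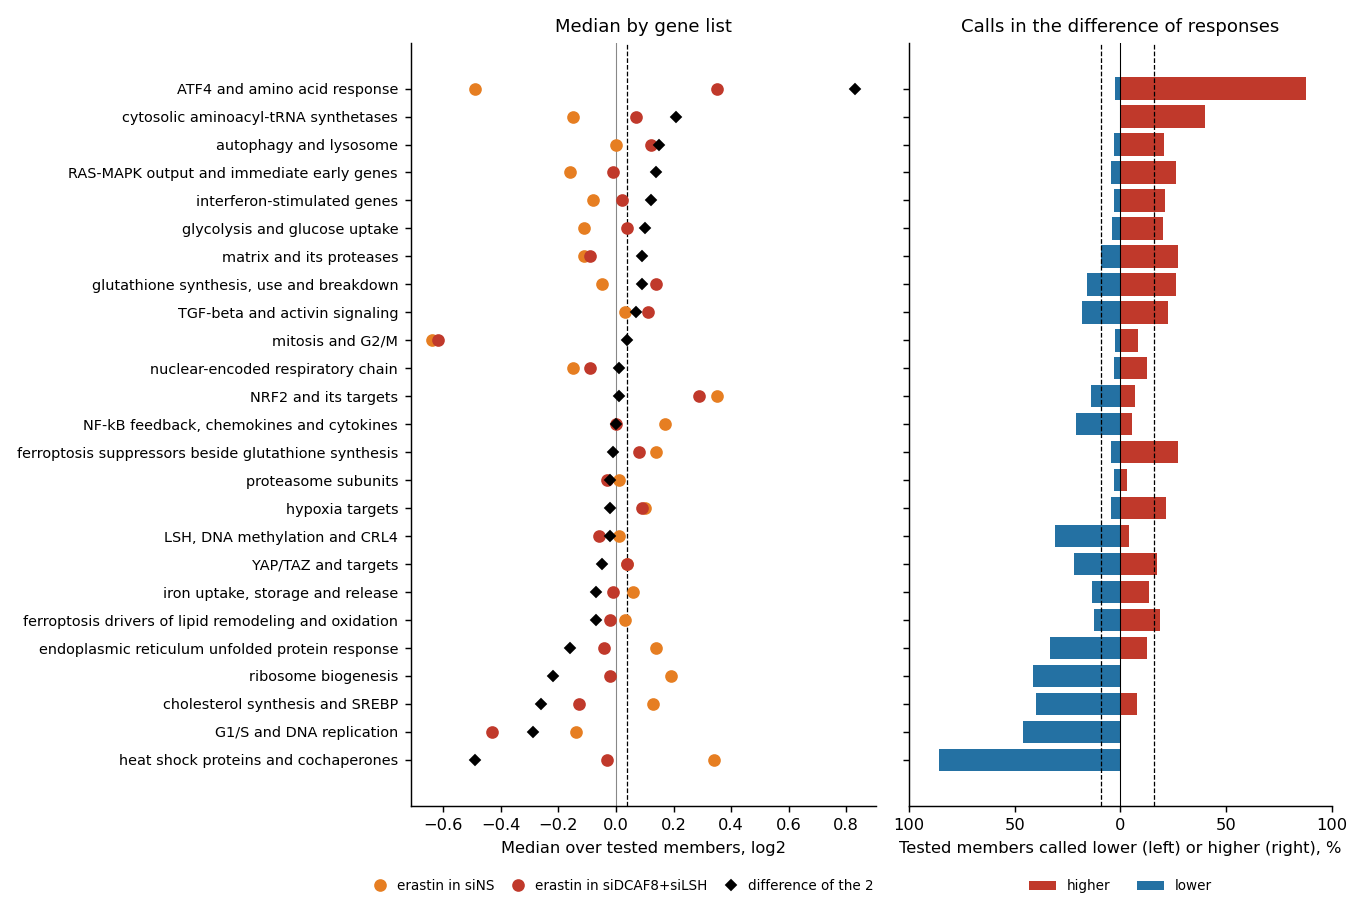
Left, median log2 over the tested members of each gene list shown for the erastin response in siNS, in siDCAF8+siLSH and for the difference; the dashed line is the median difference of all genes (0.04). Right, percentage of tested members called lower or higher in the difference, with dashed lines at the percentages over all genes (9.13 and 15.6); the ATF4 list (36 of 41 higher) and the heat shock list (18 of 21 lower) are at the ends.

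Part of the DNA replication genes had a lower response to erastin in siDCAF8+siLSH than in siNS, from a higher start. All 37 members of the G1/S and DNA replication list were tested, 17 with a lower response (against 9.13% of all genes) and 0 with a higher one, and the median was -0.29. Without erastin 36 of 37 were higher in siDCAF8+siLSH (against 35.9% of all genes), with a median gap of 1.13 log2. In siNS 14 fell and 2 rose (median -0.14), against 22.4% and 15.1% of all genes. In siDCAF8+siLSH 32 fell (median -0.43), against 9.54%. In siDCAF8 alone 32 fell as well (median -0.47), against 22.5%. With no filter on low values, or without siDCAF8+siLSH replicate 2 or siDCAF8+siLSH/Erastin replicate 2, the 17 became 11. CDC6, which loads the replicative helicase, stood at 6.52 and 6.26 FPKM in siNS and 7.57 and 8.19 in siNS/Erastin. In siDCAF8+siLSH it fell from 31.1 and 35.8 to 23.8 and 21.4, staying above siNS, with a difference of -0.81 (SE 0.12, adjusted p = 2.18e-04). CCNE2, a G1/S cyclin, differed by -1.14 (SE 0.21), FEN1, a flap endonuclease, by -0.64, and MCM4, a helicase subunit, by -0.56. CDC25A, the phosphatase that activates CDK2, is not in the list and had the most negative called difference after SSX2B. It rose in siNS from 2.43 and 2.82 to 5.81 and 6.12 FPKM and fell in siDCAF8+siLSH from 13.2 and 15.7 to 10.52 and 9.04, a difference of -1.46 (SE 0.14, adjusted p = 7.50e-06).

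Mitotic genes fell in both backgrounds. All 36 members of the mitosis list fell in siNS and all 36 in siDCAF8+siLSH, against 22.4% and 9.54% of all genes. The medians were -0.64 and -0.62, and the responses differed for 4, against 24.8% of all genes. Without siDCAF8+siLSH/Erastin replicate 2, or with the correction for GC content and length, 6 were higher and 1 lower. CENPE (0.49), HMMR (0.47) and KIF20A (0.33) fell less in siDCAF8+siLSH, and ANLN (-0.46) fell more. Their promoters hold TTTGAA, the cell cycle homology element, on either strand in 17 of 30 cases (56.7%), against 7.89% of all 9101.

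Partners of LSH and the DNA methylation machinery partly moved with the replication genes. Of 26 tested genes of LSH, DNA methylation and the CRL4 ligases 8 were lower and 1 higher, against 9.13% and 15.6% of all genes. CDCA7, which recruits LSH to chromatin, rose in siNS from 8.88 and 8.69 to 14.2 and 13.95 FPKM and fell in siDCAF8+siLSH from 25.5 and 25.4 to 22.2 and 21.5, a difference of -0.84 (SE 0.09, adjusted p = 2.58e-05). UHRF1, which recruits DNMT1 and is in the replication list too, differed by -0.61, the de novo methyltransferase DNMT3B by -0.45 and WDR76 by -0.47. DTL, the CRL4 receptor for replication licensing factors, differed by -0.61. Without siNS replicate 2 or siDCAF8+siLSH/Erastin replicate 2 the 8 became 5.

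Of 25 tested genes of cholesterol synthesis 11 rose and 5 fell with erastin in siNS, and 1 rose and 5 fell in siDCAF8+siLSH. Over all genes 15.1% rose and 22.4% fell in siNS, and 10.6% rose and 9.54% fell in siDCAF8+siLSH. The responses of 10 cholesterol genes were lower and of 2 higher, against 9.13% and 15.6% of all genes. The median was -0.26 (0.13 in siNS and -0.13 in siDCAF8+siLSH). HMGCS1, which makes the precursor of mevalonate, rose in siNS from 58.5 and 54.4 to 110.3 and 99.0 FPKM and fell in siDCAF8+siLSH from 39.3 and 41.1 to 29.4 and 30.8. The 4 groups did not overlap, and the difference was -1.29 (SE 0.18, adjusted p = 1.55e-04). INSIG1, the sterol-regulated brake on SREBP (-0.90), and SQLE, squalene epoxidase (-0.71), were lower too. SREBF1 (0.67), which drives fatty acid rather than sterol genes, and TM7SF2 (0.73), a sterol reductase, were higher. Leaving out siNS replicate 2 left 5 of the 10 lower calls.

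Of 29 tested ribosome biogenesis genes 12 had a lower response and 0 a higher one, with a median of -0.22, and over the alternatives 8 to 15 were lower. Over all genes 9.13% had a lower response and 15.6% a higher one. In siNS 15 of the list rose (against 15.1% of all genes) and in siDCAF8+siLSH 1 rose (against 10.6%). All 29 were already higher in untreated siDCAF8+siLSH (against 35.9% of all genes), with a median gap of 0.60. GNL3, nucleostemin, rose in siNS from 82.3 and 80.8 to 127 and 129 FPKM and was 122 and 133 before and 125 and 127 after erastin in siDCAF8+siLSH, a difference of -0.66 (SE 0.07, adjusted p = 2.75e-05). NOLC1 kept a wide gap throughout, at 17.8 to 24.6 FPKM in the 4 siNS libraries and 99.1 to 102 in the 4 of siDCAF8+siLSH, and differed by -0.41.

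**Figure D4:**
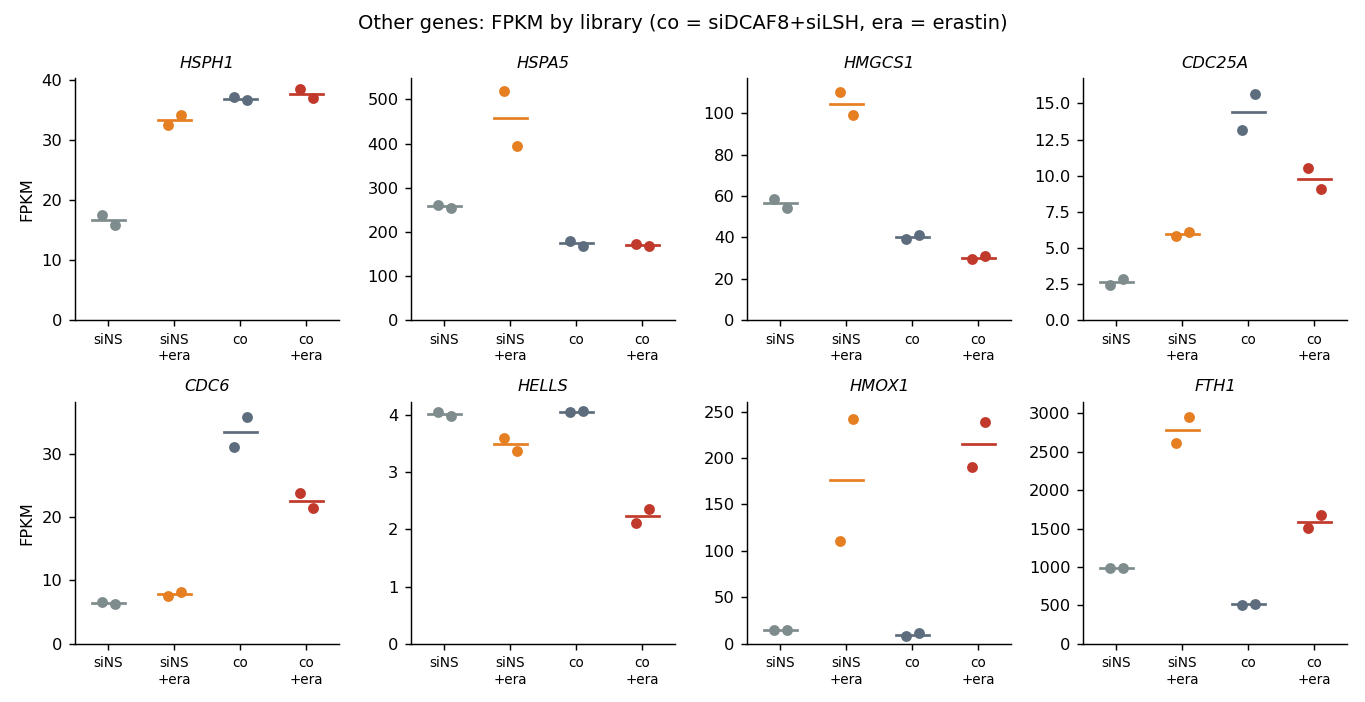
FPKM of 8 further genes in each of the 8 libraries (points) with the mean of each group of 2 (line), for siNS and siDCAF8+siLSH (co) without and with erastin (era); each axis starts at 0. HSPH1 is low in untreated siNS only, CDC6 is high in both siDCAF8+siLSH groups, HELLS is lowest in siDCAF8+siLSH with erastin, and HMOX1 and FTH1 rise in both.

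Signaling lists split within themselves. GDF15, a secreted stress cytokine, rose in siNS from 1187 and 1248 to 1944 and 1613 FPKM and in siDCAF8+siLSH from 361 and 323 to 970 and 913 (difference 0.92, SE 0.12). BBC3 (0.67), the proapoptotic PUMA, was also higher, PLK2 (-0.98), a polo-like kinase, was lower, and CDKN1A (0.01), a CDK inhibitor, was not called. Of 19 tested NF-kB genes, cytokines and chemokines 4 were lower (2 to 7 over the alternatives) and 1 higher. Over all genes 9.13% were lower and 15.6% higher, and in either direction the list was near the 24.8% called. The feedback inhibitor TNFAIP3 fell in siDCAF8+siLSH and rose in siNS (-0.74), and IL6 was higher (1.06). The chemokine CCL3 rose more in siNS, from 4.02 and 3.14 to 18.4 and 16.7 FPKM. In siDCAF8+siLSH it went from 0.96 and 1.28 to 3.09 and 1.69 (difference -1.37). The deposited table places CCL3 on an alternate contig, so its reads may be split and its values are uncertain.

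The next counts are read against the shares of all genes, 15.6% higher and 9.13% lower. Among 33 interferon-stimulated genes 7 were higher and 1 lower, with STAT2 (0.51) and IRF9 (0.80), subunits of the interferon transcription complex, among the higher, and after quantile normalization the 7 became 4. Of 23 YAP/TAZ genes 4 were higher and 5 lower. CCN1 rose in siNS from 265 and 246 to 598 and 552 FPKM and was 191 and 184 before and 246 and 184 after erastin in siDCAF8+siLSH (-0.98), and CCN2 differed by -0.85. Without siNS/Erastin replicate 1 the 5 became 3. Of 22 TGF-beta and activin genes 5 were higher and 4 lower (2 to 4), with LTBP2 (0.83) and TGFBI (0.86), both of the matrix, among the higher. RAS-MAPK output had 6 of 23 higher, led by KLF2 (0.86) and EGR1 (0.78), and 1 lower. In either direction 7 were called, against 24.8% of all genes. After quantile normalization the 6 became 4. The median difference of 0.14 was 0.27 without siDCAF8+siLSH replicate 1 and 0.00 without siDCAF8+siLSH replicate 2.

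Counts in the metabolic and degradation lists are likewise read against all genes, and in either direction those of glycolysis, hypoxia and autophagy were near the 24.8% called. Of 25 glycolysis genes 5 were higher and 1 lower, and the 5 became 2 without siNS replicate 2. TXNIP, a brake on glucose uptake, fell in siNS from 231 and 216 to 76.4 and 62.8 FPKM and in siDCAF8+siLSH from 36.9 and 31.7 to 23.4 and 25.5 (1.21). Of 23 hypoxia targets 5 were higher, with VEGFA (1.22) and VLDLR (0.96) shared with the ATF4 list, and 1 was lower. The autophagy list had 7 of 34 higher, among them ULK1 (0.48), the initiating kinase, and WIPI1 (0.76), and 12 with the correction for GC content and length. Of 31 proteasome subunits 1 was higher and 1 lower, and of 32 respiratory chain genes 4 and 1. Without siDCAF8+siLSH replicate 1 the lower counts were 7 and 3, and without siDCAF8+siLSH replicate 2 the higher counts were 3 and 6. Without siNS/Erastin replicate 1 the lower proteasome count was 3, and without siNS replicate 2 or siNS/Erastin replicate 2 the higher respiratory count was 2. The glutathione list had 5 of 19 higher, which became 2 without siNS replicate 2 and 3 without siNS/Erastin replicate 2, and 3 lower, which became 1 without either. Of 22 matrix genes 6 were higher and 2 lower, but 1 was higher with no filter on low values and without siDCAF8+siLSH replicate 2 or siNS/Erastin replicate 2. Without siDCAF8+siLSH/Erastin replicate 2 there were 2, and without either siNS library, or after either rescaling, 3.

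Outside the lists, the dopamine receptor gene DRD5 went from 2.34 and 3.05 FPKM in siNS to 0.32 and 0.58 and from 0.85 and 0.85 in siDCAF8+siLSH to 3.47 and 4.67, a difference of 2.79 (SE 0.34, adjusted p = 4.87e-05). C5AR1, the receptor of complement C5a, fell in siNS from 12.7 and 13.1 to 4.19 and 4.73 FPKM and rose in siDCAF8+siLSH from 1.35 and 1.38 to 2.43 and 3.77 (2.12). RGS4, a GTPase activator for G proteins, changed in siDCAF8+siLSH and was not called in siNS. It stood at 40.3 and 37.9 FPKM in siNS, at 41.8 and 45.2 in siNS/Erastin, and fell in siDCAF8+siLSH from 54.5 and 56.6 to 23.4 and 21.7, a difference of -1.42 (SE 0.14, adjusted p = 8.92e-06). C3orf52 (-1.08) and the zinc finger gene ZNF367 (-1.07) rose in siNS and fell in siDCAF8+siLSH. Differences of SSX2 (3.18), SSX2B (-3.14), GAGE12I (1.97) and CT45A1 (-1.01), which have near-identical copies, and of the read-through genes JMJD7-PLA2G4B (1.85) and RPL17-C18orf32 (-1.17) are uncertain, since their reads could be split between copies or transcripts.

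The 2 libraries each of siDCAF8 and siDCAF8/Erastin, with DCAF8 alone depleted, allow a further contrast. The response in siDCAF8+siLSH differed from that in siDCAF8 for 2642 genes (23.5%), higher for 14.2% and lower for 9.24%, and this contrast shares the siDCAF8+siLSH libraries with the one above. GC content and length accounted for 51.2% of its variance over genes, so its values are given with that in view. HMOX1 rose in siDCAF8 from 10.4 and 10.1 to 60.0 and 27.8 FPKM, less than in siDCAF8+siLSH (difference 2.45, SE 0.42, adjusted p = 0.00242). FTH1 rose there from 506 and 468 to 1093 and 819 FPKM, again less (0.67, SE 0.13, adjusted p = 0.00481). SLC7A11 and CTH rose by 0.90 and 0.97 in siDCAF8, with differences of -0.13 (adjusted p = 0.694) and -0.03 (adjusted p = 0.883). For the ATF4 list the median response was 0.15 in siDCAF8, against -0.49 in siNS and 0.35 in siDCAF8+siLSH, and 8 of 41 members were higher and 3 lower in siDCAF8+siLSH than in siDCAF8. In siDCAF8 18 members rose with erastin and 3 fell, against 18.3% and 22.5% of all genes. Set against siNS, siDCAF8 gave a higher response for 36 of 41 members and a lower one for 1, with a median of 0.81, where all genes gave 11.0% and 9.84%. For siDCAF8+siLSH these were 36, 1 and 0.83, and both are measured from the same siNS libraries. The heat shock list had 14 of 21 lower in siDCAF8 against siNS (median -0.41), and the replication list 17 of 37 (median -0.30), beside 18 and 17 in siDCAF8+siLSH.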

How the data were processed

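The authors deposited a single table of FPKM with 2 decimals. The submitters' processing notes name StringTie and GRCh38. Per the labels' protocols RNA was amplified with Smart-seq v4, built into libraries with a NEBNext Ultra DNA kit and sequenced on a BGISEQ500. No aligner, annotation or StringTie version is given there. The deposited values hold no counts, so the depth is unknown and no counting interval is given. Library totals ran from 439799 to 455662 FPKM in the 8 libraries. Of 24107 entries 17552 carry values, and 28 symbols that had become dates were restored.

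Values were taken as log2(FPKM + 1), so changes of low genes are understated. All 16 libraries were fitted with 8 group means in limma 3.58.1 (R 4.3.3; lmFit, contrasts.fit, eBayes with a trend; 8 residual and 8.57 prior degrees of freedom). Tests were two-sided with Benjamini-Hochberg adjustment over 11260 genes of mean FPKM at least 1. Responses are differences of group means, and SEs come from the fit. Tested on simulated data for this difference (11260 genes, 200 of them moved), the model recovered 61.2% of shifts of 0.5 log2 and 95.9% of shifts of 1. Of its calls 5.18% were false. Far fewer genes were moved there than the 2790 called in the data, and the simulated noise was independent between libraries. These rates therefore need not hold for the data. Same-numbered libraries did not deviate together over the 4 groups (r of -0.18 to 0.20), and no block was used. Over all 8 groups the largest r was 0.39, between siDCAF8 and siDCAF8+siLSH.

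Named genes were the targets, the 15 largest positive and 15 largest negative called differences without overlap, in each list as many as 4 called members of lowest p, and 6 ferroptosis genes. Other list members named beside them were chosen after their values were seen. The members and lists were chosen with earlier results of these data known. GC content came from GENCODE v29 transcripts (11235 genes), promoter sequences from RefSeq (GRCh38.p14, 9101 of 11260 genes matched, start nearest the deposited gene's first base). Python 3.11.15 with pandas 2.3.3, numpy 2.4.6 and matplotlib 3.10.9 prepared tables and plots. The alternatives were another pseudocount, filters, scalings, a replicate block, a fit of 4 groups, no trend, the GC and length correction, and leaving out each library. Some genes and 1 list are not reported here.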

Additional observations from a re-analysis of the deposited data

Results flagged for a closer look

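Among the genes named by the rules given above, 34 responded to erastin in opposite directions in the 2 backgrounds. Each response was called on its own, and the difference itself was called in limma (Benjamini-Hochberg). Over all genes tested, 251 fell in siNS and rose in siDCAF8+siLSH with a called difference, and 80 did the reverse. The rules mostly pick genes by the size or p of that same difference, so the 34 are enriched by selection. List members named after their values were seen, such as SESN2, are not counted among the 34. Of the ATF4 and synthetase lists, INHBE (2.69), SLC1A4 (2.09), GPT2 (2.08), PCK2 (2.02), JDP2 (1.94), CTH (1.90), TRIB3 (1.81), SLC7A11 (1.76), AARS1 (1.30), CARS1 (1.12), SARS1 (0.84) and MARS1 (0.49) fell in siNS and rose in siDCAF8+siLSH, the value being the difference of responses in log2. The uncertain LOC102724560 (2.07) and DRD5 (2.79), C5AR1 (2.12), KLF2 (0.86), IRF9 (0.80), OPLAH (0.70), BBC3 (0.67), FDXR (0.57), XBP1 (0.55), PEX10 (0.53), IFI35 (0.52) and PSMD4 (0.37) did as well. The reverse, a rise in siNS and a fall in siDCAF8+siLSH, was seen for CDC25A (-1.46), HMGCS1 (-1.29), C3orf52 (-1.08), ZNF367 (-1.07), CDCA7 (-0.84), MANF (-0.82), CDC6 (-0.81), TNFAIP3 (-0.74), DTL (-0.61) and DNAJC3 (-0.59). With 2 libraries a group, single libraries could not be tested for standing apart from their group.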

How the results depend on the processing

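Under the 9 alternatives that keep every library, all 45 counts of called genes stayed within 1.5 times their reported value. For the difference of responses the count was 2824 with the replicate block, 2756 with a pseudocount of 0.1 (183 past 2-fold against 70), 2341 with no filter on low values, 2407 at a mean FPKM of at least 5, 2350 in a fit of only the 4 groups and 2721 with the GC and length correction. The replicate numbers only share a number, and the block moved no count by over 1.5 times. Leaving out 1 library gave 1761 to 2732 calls in the difference (lowest without siNS replicate 2), 2796 to 4385 for erastin in siNS (lowest without siNS replicate 2) and 1247 to 2280 for erastin in siDCAF8+siLSH, where siDCAF8+siLSH replicate 2 left out gave the lowest count, and leaving out replicate 1 or 2 of siDCAF8+siLSH/Erastin gave 1423 or 1281. The gap between siDCAF8+siLSH and siNS kept 6494 to 7525 calls without erastin and 6448 to 7536 with it. Fewer samples are in these fits, and a lone library is assumed to vary like the other groups. Named genes kept direction and side of the threshold in 1050 of 1084 values with every library kept and 898 of 976 with 1 left out. GPX4 changed sign, at -0.00015, with the GC and length correction; the cause was not tested.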
